A study of Mus musculus with 12 samples.

Results

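The genes described here are 9 genes of antigen presentation by MHC class I: H2-K1, H2-D1, B2m, Tap1, Tap2, Tapbp, Psmb8, Psmb9 and Nlrc5. They were chosen by name, as a list, out of the 19369 genes in the count tables of the Total libraries, and all 9 were measured. The samples were tumours of 4T1, a mouse mammary carcinoma line that serves as a model of triple-negative breast cancer. There were 6 groups: Clone E, Clone EM1, Clone EM2, Clone EM3 and Clone M, each grown from a single 4T1 cell, and Parental 4T1, the line they came from. The series describes the clones as spanning epithelial, intermediate and mesenchymal states. All were cultured and then placed in the mammary fat pad of female BALB/c mice aged 9 to 11 weeks, and 1 tumour per group was sequenced cell by cell, so a clone and its single tumour cannot be told apart. Each tumour gave a Total library and a CD45 library enriched with magnetic beads for leukocytes. Cell classes are the authors' Annotation: Tumor, Fibroblast, Endothelial, Macrophage, Granulocytes, DC (dendritic cells), T/NK and B.

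MHC class I molecules show peptides from inside a cell to CD8 T cells, and their absence is read by natural killer cells. Proteins are cut by the proteasome, in which Psmb8 and Psmb9 are catalytic subunits that replace constitutive ones in the immunoproteasome. Tap1 and Tap2 form the transporter that carries peptides into the endoplasmic reticulum, and Tapbp (tapasin) holds the transporter next to an empty class I molecule during loading. That molecule is a heavy chain, H2-K1 or H2-D1, paired with the light chain B2m. Nlrc5 is a transactivator of class I genes, and interferon-γ raises the whole set. Nearly all nucleated cells carry the pathway, leukocytes at high levels, and its loss is a well known route by which tumours escape T cells.

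Class I promoters are known for the SXY module, in which an X2 element that resembles a cyclic AMP response element and a reverse CCAAT box lie close together and hold the complex to which Nlrc5 binds. The 250 bases before the RefSeq start were searched in GRCm38.p6, on both strands, in 7 of the 9 members; Tap2 and Nlrc5 were not analysed here for sequence. Shown 5′ to 3′ on the gene's strand are the 3 members that share a spacing of motifs, H2-K1 (chr17:34000348-34000597, minus strand), H2-D1 (chr17:35262844-35263093, plus strand) and B2m (chr2:122147437-122147686, plus strand), and Tap1 (chr17:34187306-34187555, plus strand), whose window overlaps most of that of Psmb9. Capitals mark TGACG (the core of a cyclic AMP response element), CCAAT, the TATA box TATAAA and GAAANNGAAA (the core of an interferon-stimulated response element), each on either strand.
H2-K1: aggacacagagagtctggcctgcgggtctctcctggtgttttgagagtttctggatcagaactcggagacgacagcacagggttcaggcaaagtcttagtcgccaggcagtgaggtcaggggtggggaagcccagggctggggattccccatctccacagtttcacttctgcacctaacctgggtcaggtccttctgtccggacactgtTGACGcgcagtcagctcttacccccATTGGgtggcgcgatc
H2-D1: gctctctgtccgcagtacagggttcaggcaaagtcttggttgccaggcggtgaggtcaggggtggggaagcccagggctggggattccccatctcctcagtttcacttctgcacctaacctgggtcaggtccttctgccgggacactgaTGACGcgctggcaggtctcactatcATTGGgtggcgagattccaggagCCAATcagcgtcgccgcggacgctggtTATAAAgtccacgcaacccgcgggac
B2m: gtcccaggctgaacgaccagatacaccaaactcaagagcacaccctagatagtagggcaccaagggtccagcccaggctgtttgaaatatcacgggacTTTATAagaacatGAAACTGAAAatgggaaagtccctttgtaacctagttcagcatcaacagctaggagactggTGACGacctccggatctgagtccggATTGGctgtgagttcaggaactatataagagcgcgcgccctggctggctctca
Tap1: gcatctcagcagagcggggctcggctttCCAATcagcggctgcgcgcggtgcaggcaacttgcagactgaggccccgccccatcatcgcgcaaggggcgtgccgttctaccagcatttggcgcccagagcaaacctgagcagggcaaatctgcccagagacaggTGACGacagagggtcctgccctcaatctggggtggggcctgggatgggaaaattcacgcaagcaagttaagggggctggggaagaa

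In H2-K1, H2-D1 and B2m the first base of TGACG lay 25 bases before the first base of ATTGG, the reverse of CCAAT. That distance, picked after these windows had been read, occurred in 25 of 27018 promoters of the same length (0.0925%), and 4 of the 25 were H2 genes or B2m, the fourth being H2-M3, a class I-like gene. TGACG alone was in 5 of the 7 members and in 17.9% of all promoters, and CCAAT in 6 members and in 34.5% of all. For each of these motifs the Tap1 and the Psmb9 match were the same bases, read on opposite strands, so 1 site was counted in both members. TATAAA was in 3 members (13.0% of all promoters), 26 bases before the start in H2-D1, 237 in Psmb8 and, on the other strand, 152 in B2m. GAAANNGAAA was only in B2m among the 7 (3.04% of all), 139 bases before the start. Only exact matches of these letters were sought, so a window without a match may still hold a looser form of the element. The Tap1 and Psmb9 windows overlapped by 225 bases, since the genes start back to back on opposite strands, at 34187556 and 34187330 of chromosome 17. Tap1, Tap2, Psmb8 and Psmb9 lie together in the class II region between positions 34182030 and 34216321. Tapbp (33919478 to 33929290) and H2-K1 (33996012 to 34000619) are on one side of them, with the start that sets the H2-K1 window 272 bases inside this span, and H2-D1 (35263094 to 35267497) on the other. B2m is on chromosome 2 (122147687 to 122153082) and Nlrc5 on chromosome 8 (94434335 to 94527272).

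H2-K1 and H2-D1 are paralogs whose counts could be partly shared, which was not tested. Over 1475 aligned bases their longest coding transcripts in GENCODE vM21 were 90.3% identical. The mm10 build named in the submitters' processing notes comes from a strain of haplotype H2-b, while 4T1 cells and BALB/c hosts share haplotype H2-d and also carry H2-L, a close relative of H2-D1 that the reference lacks. Tumour and host cells meet that mismatch alike, but its part in any level was not tested.

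The 6 Total libraries held 38499899 to 122055131 UMIs (unique molecular identifiers, counts of captured RNA molecules) over 60657 cells. After called doublets were removed, 58981 cells entered the 8 classes, and the tumour cells numbered 767 (Clone E) to 5924 (Parental 4T1) per tumour. Median depth ran from 6402 to 15260 UMIs per tumour cell and from 779.5 to 1459.5 per granulocyte, so the scaling bears on differences between classes. Macrophage markers summed to 66.3 to 342 CPM (a gene's count relative to the summed UMIs of its class) in tumour cells, against 9210 to 16901 in macrophages, and Ptprc, which encodes CD45, stood at 3.63 to 21.5 CPM. The epithelial keratin Krt8 stood at 1196 to 3113 CPM in the tumour cells of all 6 tumours, and Epcam at 4.76 in Clone EM3 to 1601 in Clone E. The B class also held Siglech, a marker of plasmacytoid dendritic cells, at 370.1 to 1642.5 CPM beside Cd79a of B cells at 970.5 to 1909, and the DC class was rich in Ccr7 (2496 to 5340.5 CPM), which marks migratory dendritic cells. Of 66 pairs of libraries, 14 shared 12.2 to 19.1% of their bead barcodes and the other 52 at most 1.91%, while 1501 full cell barcodes recurred, summed over all pairs. By this sharing the libraries fell into 4 barcode sets: Clones E and EM3, Clones EM1 and EM2, Clone M, and Parental 4T1. The labels do not say what these sets are.

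Tumour cells were not uniformly low in class I genes. Against the other class in the same tumours, 7 of the 9 members were higher in tumour cells than in fibroblasts, 8 of 9 were lower than in dendritic cells and 5 of 9 lower than in T/NK cells. The tests were edgeR's quasi-likelihood test on UMIs summed per class and tumour, with the tumour as a block, TMM scaling and Benjamini-Hochberg adjustment over all genes, called at an adjusted p under 0.05 (n = 6 tumours). Against fibroblasts, 30.1% of all 11477 genes tested were called higher and 26.7% lower, beside 7 and 0 of the members. Against endothelial cells the members split into 4 higher and 1 lower, over a background of 28.4% and 22.2%.

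**Figure D1:**
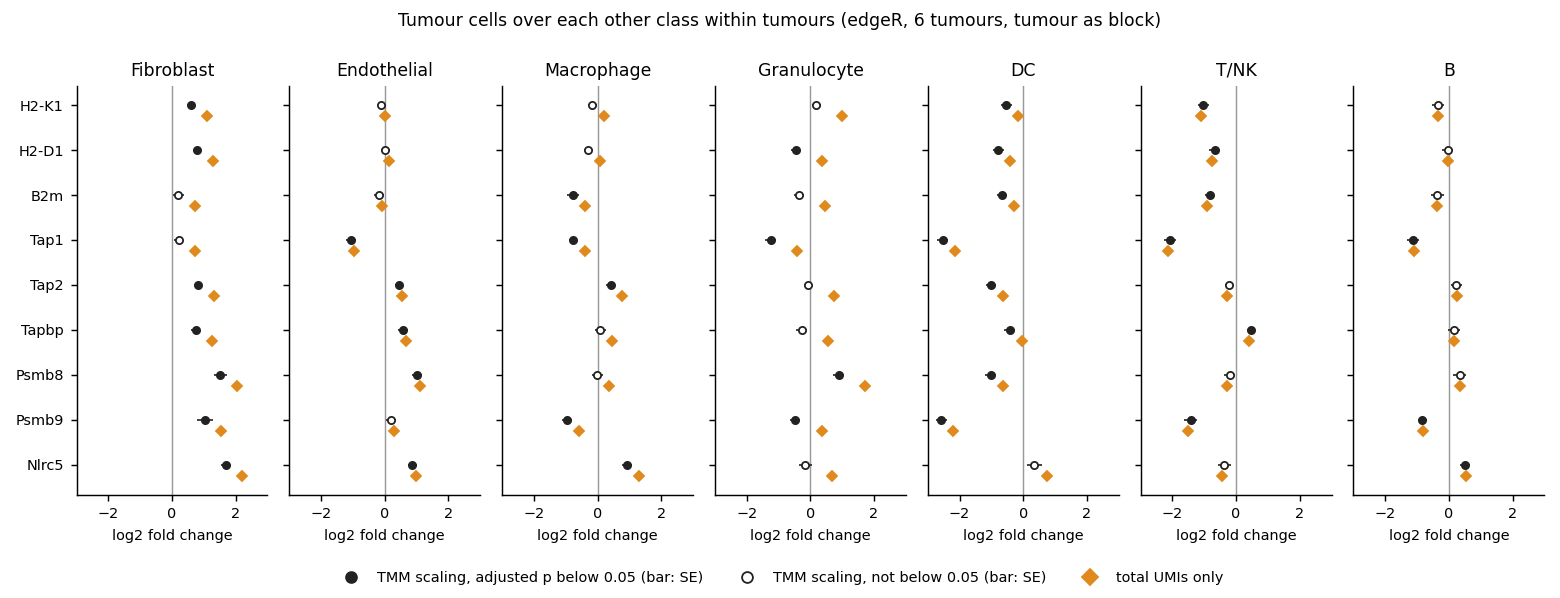
Log2 fold change (x axis) of each member in tumour cells over each of the 7 other classes (panels), from edgeR with TMM scaling; bars are standard errors, filled points have an adjusted p under 0.05 and open points do not, and orange diamonds give the value scaled on total UMIs. Tap1 and Psmb9 lie farthest to the left against DC, at -2.54 and -2.57, and Nlrc5 farthest to the right against fibroblasts, at 1.70.

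Macrophages gave 3 members lower and 2 higher (37.9% and 37.5% of all genes), granulocytes 3 lower and 1 higher (31.2% and 40.0%). For dendritic cells the background was 26.8% lower and 36.0% higher, beside 8 and 0 members, and for T/NK cells 33.8% and 35.8%, beside 5 and 1. In the B class 2 members were lower and 1 higher, close to its background of 26.0% and 30.5%. The median log2 fold change of the members was 0.79 against fibroblasts, 0.18 against endothelial cells and -0.79 against dendritic cells. It was -0.67 against T/NK cells, -0.28 against granulocytes, -0.16 against macrophages and -0.04 against the B class. Over all genes tested that median was 0.11, 0.16, 0.21, 0.02, 0.23, 0.01 and 0.08 in the same order of classes.

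These calls are relative to a class's other RNA. Scaling on total UMIs instead of TMM moved the median of all genes by 0.51 against fibroblasts, 0.11 against endothelial cells, 0.36 against macrophages, 0.83 against granulocytes and 0.39 against dendritic cells. With it the share of called genes that were lower in tumour cells went from 47.0% to 23.7% for fibroblasts, from 50.3% to 37.2% for macrophages, from 43.8% to 21.3% for granulocytes and from 42.7% to 27.7% for dendritic cells. Counted as UMIs per cell that share was 18.2% for fibroblasts, 14.1% for endothelial cells (44.0% with TMM), 17.9% for macrophages, 4.32% for granulocytes and 9.53% for dendritic cells. It was 6.64% for T/NK cells and 5.47% for the B class, beside 48.6% and 46.0% with TMM. Tumour cells had more UMIs per cell, and on that count 34 of the 63 member fold changes turned from lower to higher.

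Without the tumour as a block 13 of the 63 results lost their call, each with the same direction. The adjusted p was then 0.058 for H2-K1 and 0.055 for Psmb9 over fibroblasts, 0.075 for Tap1, 0.13 for Tap2 and 0.098 for Nlrc5 over endothelial cells, and 0.14 for Tap1, 0.20 for Tap2 and 0.057 for Nlrc5 over macrophages. It was 0.17 for H2-D1 and 0.21 for Psmb9 over granulocytes, 0.057 for H2-K1 and 0.084 for Tapbp over dendritic cells, and 0.32 for Nlrc5 over the B class.

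**Figure D2:**
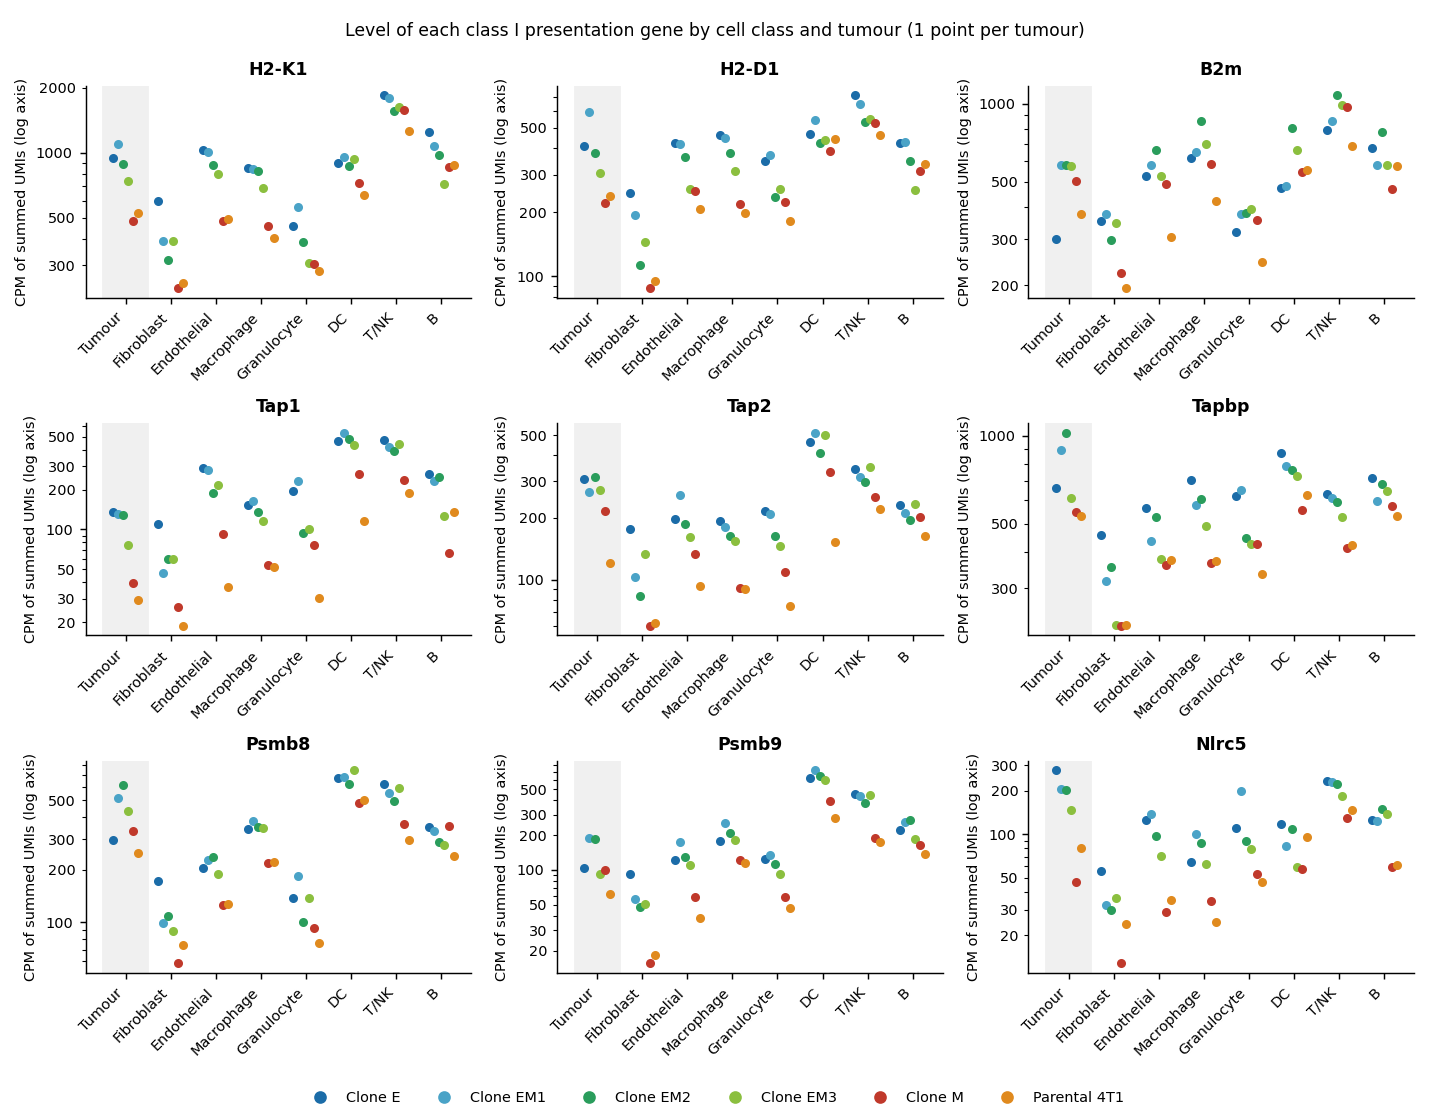
CPM on a log axis (y) of each member (panels) in the 8 Annotation classes (x axis) of the 6 Total libraries, 1 point per tumour. Tumour cells sit above fibroblasts in all 6 tumours for H2-K1, H2-D1, Tap1, Tap2, Tapbp, Psmb8, Psmb9 and Nlrc5, and below DC in all 6 for Tap1, Tap2, Psmb8 and Psmb9.

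Nlrc5, the transactivator, was among the members highest in tumour cells relative to the host. In tumour cells it stood at 276 CPM in Clone E, 204, 202 and 148 in Clones EM1, EM2 and EM3, 46.6 in Clone M and 80.8 in Parental 4T1. Clone M was thus the lowest tumour and Clone E the highest, a range wider than for any host class. Macrophages had 24.7 to 101 CPM (median 63.3) and fibroblasts 12.8 to 55.8 (median 31.1), and tumour cells were above both in all 6 tumours. Nlrc5 was 3.25-fold higher in tumour cells than in fibroblasts (log2 1.70, SE 0.14, adjusted p = 7.8e-06), and 1.90-fold higher than in macrophages (log2 0.92, SE 0.17, adjusted p = 6.9e-04). It was also higher than in endothelial cells (log2 0.87, SE 0.13, adjusted p = 2.1e-04), and all of these kept that direction under the other scalings. Over the B class the call (log2 0.50, adjusted p = 0.020) was lost without Clone E (0.076), Clone EM1 (0.073) or Clone EM2 (0.056). The other differences did not pass the test, at log2 -0.37 for T/NK cells, 0.35 for dendritic cells and -0.16 for granulocytes, the last turning on total UMIs (0.67, adjusted p = 0.0067) and per cell (3.80). Without Clone M the value over dendritic cells did pass (log2 0.57, adjusted p = 0.035). With all 6 tumours it passed on total UMIs (log2 0.73, adjusted p = 0.013).

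The immunoproteasome subunits differed from each other in their ranking among classes. Psmb8 stood at 295 CPM in the tumour cells of Clone E, 517, 609.8 and 435 in Clones EM1, EM2 and EM3, 332 in Clone M and 250.5 in Parental 4T1. Fibroblasts ranged from 58.4 to 172 CPM (median 94.7) and did not overlap with tumour cells. Psmb8 was 2.87-fold higher in tumour cells than in fibroblasts (log2 1.52, SE 0.20, adjusted p = 1.3e-04), 2.01-fold higher than in endothelial cells and 1.85-fold higher than in granulocytes, with that direction under each scaling. It was lower than in dendritic cells (484.6 to 741 CPM; log2 -1.03, SE 0.18, adjusted p = 2.2e-04), though per cell it was higher there (log2 0.65). Macrophages were level with tumour cells on the TMM scale (log2 -0.0038, SE 0.17, adjusted p = 0.99), which does not show that they were equal, and on total UMIs tumour cells were higher (log2 0.36, adjusted p = 0.037). T/NK cells (log2 -0.20) and the B class (0.33) did not pass the test, and without Clone E the B class did (log2 0.49, adjusted p = 0.038).

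Psmb9 was among the members lowest in tumour cells relative to dendritic cells. Its CPM in tumour cells was 103 in Clone E, 188, 185 and 93.0 in Clones EM1, EM2 and EM3, 100.05 in Clone M and 62.1 in Parental 4T1. Dendritic cells ranged from 280.2 to 724 (median 609.6) and T/NK cells from 174 to 456 (median 408), and in every tumour both were above its tumour cells. The level was 5.96-fold lower in tumour cells than in dendritic cells (log2 -2.57, SE 0.17, adjusted p = 3.3e-08), and it was lower per cell too (log2 -0.90, adjusted p = 0.0058). Psmb9 was lower than in T/NK cells (log2 -1.43, SE 0.20, adjusted p = 1.7e-04), the B class (-0.83) and macrophages (-0.96), but per cell these turned to 1.25, 1.72 and 0.16. It was higher than in fibroblasts (log2 1.04, SE 0.25, adjusted p = 0.0058) under each scaling. Granulocytes had lower CPM than tumour cells in 5 of 6 tumours, yet the TMM fit called Psmb9 lower in tumour cells (log2 -0.48, adjusted p = 0.013), which turned to 0.35 on total UMIs and 3.50 per cell. That call was lost without Clone E (0.11) or Clone EM3 (0.060). Endothelial cells did not pass the test (log2 0.18).

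Tap1, which with Tap2 carries peptides into the endoplasmic reticulum, was second to last in tumour cells among the 8 classes by mean CPM. Its tumour cell level was 136 CPM in Clone E, 131, 129 and 76.3 in Clones EM1, EM2 and EM3, 39.1 in Clone M and 29.5 in Parental 4T1. In dendritic cells it ranged from 116 to 536 CPM (median 452), in T/NK cells from 189 to 473 (median 407) and in macrophages from 52.2 to 165 (median 126). All of these were above the tumour cells of the same tumour. Tap1 was 5.80-fold lower in tumour cells than in dendritic cells (log2 -2.54, SE 0.17, adjusted p = 3.8e-08), also per cell (log2 -0.87, adjusted p = 0.0064). It was 4.20-fold lower than in T/NK cells (log2 -2.07, SE 0.19, adjusted p = 1.2e-05), while per cell the difference turned (log2 0.57, adjusted p = 0.093). It was also lower than in the B class (log2 -1.12, per cell 1.44), granulocytes (-1.25, per cell 2.73) and macrophages (-0.78, per cell 0.34), with adjusted p from 5.1e-05 to 2.0e-04 on the TMM scale. Against endothelial cells it was 2.09-fold lower (log2 -1.06, SE 0.15, adjusted p = 1.3e-04), with a loss of the call but not of direction per cell (log2 -0.18, adjusted p = 0.44). Fibroblasts were below tumour cells in all 6 tumours by CPM, but the fitted difference did not pass (log2 0.21, adjusted p = 0.20); on total UMIs it did (0.72, adjusted p = 0.0020).

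Tap2, the partner of Tap1, did not follow it. Tumour cells had 308 CPM in Clone E, 266, 315 and 272 in Clones EM1, EM2 and EM3, 216 in Clone M and 120.2 in Parental 4T1. Parental 4T1 lay apart below the others, and macrophages, at 90.0 to 192 CPM (median 158), were below the tumour cells in each tumour. Tap2 was higher in tumour cells than in fibroblasts (log2 0.82, SE 0.14, adjusted p = 7.4e-04), in endothelial cells (0.44, adjusted p = 0.016) and in macrophages (0.41, adjusted p = 0.021), under each scaling. The endothelial call was lost without Clone EM2 (0.057), and the macrophage call without Clone EM2 (0.051), EM3 (0.055) or M (0.057). It was 2.02-fold lower than in dendritic cells (log2 -1.01, SE 0.15, adjusted p = 4.9e-05), which turned per cell (log2 0.65, adjusted p = 0.042). Differences from T/NK cells (log2 -0.21), granulocytes (-0.09) and the B class (0.23) did not pass the test. On total UMIs the granulocyte value turned and passed (log2 0.74, adjusted p = 1.6e-04), and per cell it was 3.88.

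Tapbp, which bridges the transporter and the class I molecule, was high in tumour cells and dendritic cells alike. Its tumour cell CPM was 663 in Clone E, 893, 1021 and 611 in Clones EM1, EM2 and EM3, 549.8 in Clone M and 529 in Parental 4T1, beside 558 to 872 (median 745) in dendritic cells, so the ranges overlapped. Tapbp was higher in tumour cells than in fibroblasts (log2 0.75, SE 0.14, adjusted p = 0.0014), endothelial cells (0.57, SE 0.15, adjusted p = 0.0069) and T/NK cells (0.47, SE 0.13, adjusted p = 0.012), in all 6 tumours and under each scaling. With at least 50 cells per sum the endothelial call was lost (adjusted p = 0.057). The lower value against dendritic cells (log2 -0.43, adjusted p = 0.039) turned per cell (1.25). It was lost without Clone E (0.055), EM3 (0.12), M (0.081) or Parental 4T1 (0.080), and on total UMIs (log2 -0.05). Macrophages (log2 0.09), granulocytes (-0.28) and the B class (0.16) did not pass. The macrophage difference did pass as higher on total UMIs (log2 0.45, adjusted p = 0.012). For granulocytes the value turned on total UMIs (log2 0.55, adjusted p = 0.0077) and per cell (3.70).

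B2m, the light chain, was the only one of the 9 members with its lowest tumour cell level in Clone E, 301 CPM, beside 582, 580.4 and 575 in Clones EM1, EM2 and EM3, 502 in Clone M and 375 in Parental 4T1. T/NK cells had 687 to 1076 CPM (median 912) and macrophages 423 to 857 (median 635), both above the tumour cells in all 6 tumours. B2m was 1.78-fold lower in tumour cells than in T/NK cells (log2 -0.83, SE 0.14, adjusted p = 6.7e-04), 1.70-fold lower than in macrophages (-0.77, SE 0.18, adjusted p = 0.0032) and 1.59-fold lower than in dendritic cells (-0.67, SE 0.17, adjusted p = 0.0034). Per cell all of these turned, to log2 1.85, 0.36 and 1.02. The T/NK call was lost without the filter on low counts (adjusted p = 0.094), and the dendritic call on total UMIs (0.11). The granulocyte difference (log2 -0.35, adjusted p = 0.051) had no stable direction. It passed as lower without Parental 4T1 (0.043) and by DESeq2 (0.0057), but as higher on total UMIs (log2 0.47, adjusted p = 0.0087) and per cell (3.63), and by CPM tumour cells were higher in 5 of 6 tumours. Fibroblasts (log2 0.20), endothelial cells (-0.18) and the B class (-0.36) did not pass. On total UMIs the fibroblast difference did pass (log2 0.71, adjusted p = 0.0046).

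The heavy chains H2-K1 and H2-D1 ranked the 6 tumours in the same order by tumour cell CPM, from Clone EM1 down to Clone M. H2-K1 stood at 943 CPM in the tumour cells of Clone E, 1099.9, 885 and 736 in Clones EM1, EM2 and EM3, 484 in Clone M and 525 in Parental 4T1. T/NK cells had 1268 to 1848 CPM (median 1607) and were above every tumour cell value, and fibroblasts had 235 to 597 (median 353). H2-K1 was 2.04-fold lower in tumour cells than in T/NK cells (log2 -1.03, SE 0.17, adjusted p = 5.1e-04), which turned per cell (1.62), and 1.51-fold higher than in fibroblasts (log2 0.60, SE 0.13, adjusted p = 0.0033) under each scaling. The lower value against dendritic cells (log2 -0.53, adjusted p = 0.014) turned per cell (1.14), and by CPM the tumours divided 3 to 3. It was lost without Clone EM3 (0.056) or Clone M (0.057), on total UMIs (0.39) and without the filter on low counts (0.079). Macrophages had less H2-K1 than tumour cells in all 6 tumours by CPM, but the fitted difference had the opposite sign and did not pass (log2 -0.16, adjusted p = 0.30). Endothelial cells (log2 -0.10), granulocytes (0.18) and the B class (-0.34) did not pass either. Over granulocytes H2-K1 did pass as higher on total UMIs (log2 1.00, adjusted p = 2.9e-05) and per cell (4.15). By CPM tumour cells were above granulocytes in all 6 tumours.

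H2-D1 was at 408 CPM in the tumour cells of Clone E, 595, 379 and 306 in Clones EM1, EM2 and EM3, 220.3 in Clone M and 237 in Parental 4T1. Fibroblasts had 88.0 to 248 CPM (median 129), T/NK cells 461 to 709 (median 541) and dendritic cells 389.7 to 545 (median 441). Only the fibroblast and T/NK values lay on one side of the tumour cells of the same tumour in all 6. H2-D1 was higher in tumour cells than in fibroblasts (log2 0.79, SE 0.12, adjusted p = 4.3e-04) under each scaling. It was lower than in dendritic cells (log2 -0.79, SE 0.17, adjusted p = 0.0013) and T/NK cells (-0.67, SE 0.17, adjusted p = 0.0055), and both turned per cell, to 0.89 and 1.98. Without the filter on low counts the T/NK call was lost (log2 -0.26, adjusted p = 0.28). H2-D1 was called lower in tumour cells than in granulocytes (log2 -0.46, adjusted p = 0.012), although its CPM was higher in tumour cells in 5 of 6 tumours. On total UMIs that difference turned (log2 0.37, adjusted p = 0.027), as it did per cell (3.51), and without Clone E the call was lost (0.063). Endothelial cells (log2 0.02), macrophages (-0.29) and the B class (-0.04) did not pass, though macrophages did by DESeq2 (log2 -0.34, adjusted p = 0.023), with log2 0.08 on total UMIs.

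Few neighbours in the order of classes could be separated. Ranking the 8 classes by mean CPM gave 7 neighbouring pairs per member, 63 in all, and 20 pairs kept their order in all 6 tumours. The order was firmest for Psmb9 (5 of 7 pairs), from dendritic cells (544 ± 169 CPM, SD, n = 6) to T/NK cells (346.5 ± 131), the B class (206 ± 53.0), macrophages (177 ± 53.3) and tumour cells (122 ± 52.0). For Nlrc5 only 1 of 7 pairs held, macrophages above fibroblasts, and tumour cells (160 ± 85.5) were second to T/NK cells (191 ± 44.3) with the reverse order in 1 tumour. For Tap1, dendritic cells (383 ± 161) and T/NK cells (359 ± 117) were each higher in 3 tumours. By rank, tumour cells were at place 2 of 8 for Tapbp, 3 for H2-D1, Tap2 and Psmb8, 5 for H2-K1 and 6 for B2m, and fibroblasts came last for all 9 members.

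None of the 8 classes is known to lack these genes, so free RNA from broken cells was gauged by markers. As a percent of the macrophage level in the same tumour, the summed macrophage markers reached 0.395 to 3.72% in tumour cells (median 0.770%), and each of the 9 members 48.8% or more. The lowest ratios were those of B2m (48.8 to 89.1%), Psmb9 (50.9 to 88.9%) and Tap1 (56.5 to 95.6%), and the highest those of Nlrc5 (135 to 427%). S100a8, an abundant granulocyte gene, was at 0.101 to 0.801% of its granulocyte level and Cd3e, a T cell gene, at 0.242 to 2.48% of its T/NK level. Host classes held markers of other classes too. In fibroblasts macrophage markers summed to 256 to 1917 CPM, beside 66.3 to 342 in tumour cells. T and NK markers summed to 90.2 to 852 there, beside 8.16 to 80.0. Granulocyte markers summed to 91.7 to 4125 CPM in endothelial cells, beside 256 to 1117 in tumour cells. The part of free RNA in the contrasts was not tested.

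Of 38 other genes of the pathway, 36 could be tested against each class (35 against dendritic cells). Of 14 regulators, 10 were lower in tumour cells than in T/NK cells and 1 higher, beside 33.8% and 35.8% of all genes tested. Against the B class 10 were lower (26.0% of all genes), against macrophages 9 lower and 4 higher (37.9% and 37.5%) and against dendritic cells 8 lower (26.8%). Per cell these counts became 2 lower and 11 higher for T/NK cells (6.28% and 88.3% of all genes) and 1 and 12 for the B class (5.16% and 89.3%). They became 2 and 8 for macrophages (14.3% and 65.8%) and 5 and 9 for dendritic cells (8.61% and 81.7%), so the shares that were higher per cell are to be read against backgrounds this large. Of 7 further proteasome genes, 5 were higher than in fibroblasts (30.1% of all genes) and 6 higher than in granulocytes (40.0%; 66.2% on total UMIs and 92.9% per cell). Of the 7, 4 were lower than in dendritic cells, becoming 2 lower and 2 higher on total UMIs (19.5% and 50.9% of all genes) and 5 higher per cell. Over the whole list, 19 genes were lower and 1 higher than in dendritic cells (11 and 4 on total UMIs, 6 and 25 per cell), and 17 and 5 against T/NK cells (2 and 30 per cell). Against fibroblasts 5 were lower and 11 higher, beside 26.7% and 30.1% of all genes with TMM; on total UMIs 3 were lower and 27 higher, beside 17.7% and 56.8%.

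The genes called in most contrasts were receptors and regulators of interferon signalling and class I-like genes. Ifngr1, a chain of the interferon-γ receptor, was lower in tumour cells than in all 7 classes, with a mean of 90.5 CPM against 2038 in T/NK cells (log2 -4.42, adjusted p = 2.2e-07), though per cell it was higher than in granulocytes (2.18) and the B class (0.94). Jak1, the kinase on that receptor, was lower than in all 7 too, by log2 -0.46 (macrophages) to -1.91 (T/NK cells), but on total UMIs it was lower than in 5 classes, and per cell lower than in 1 and higher than in 5. The transcription factor Irf8 was lower than in 6 classes, by log2 -4.78 against the B class (5 classes on total UMIs), though per cell it was higher than in granulocytes (3.20). H2-T24, a class I-like gene, was lower than in the 6 classes it was tested against, by log2 -5.35 against the B class. Per cell the T/NK difference did not pass (0.35). H2-T24 was scarce in tumour cells, at 1.04 to 3.72 CPM, and was not tested against dendritic cells. Irf9, part of the type I interferon response complex, was lower than in 6 classes, by log2 -1.99 against granulocytes, but per cell it was lower than in 0 classes and higher than in 5. H2-Q4, a class I-like gene, was instead higher in tumour cells than in 6 classes, by log2 1.38 against macrophages and 1.34 against fibroblasts, and the 6 calls held on total UMIs and per cell.

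**Figure D3:**
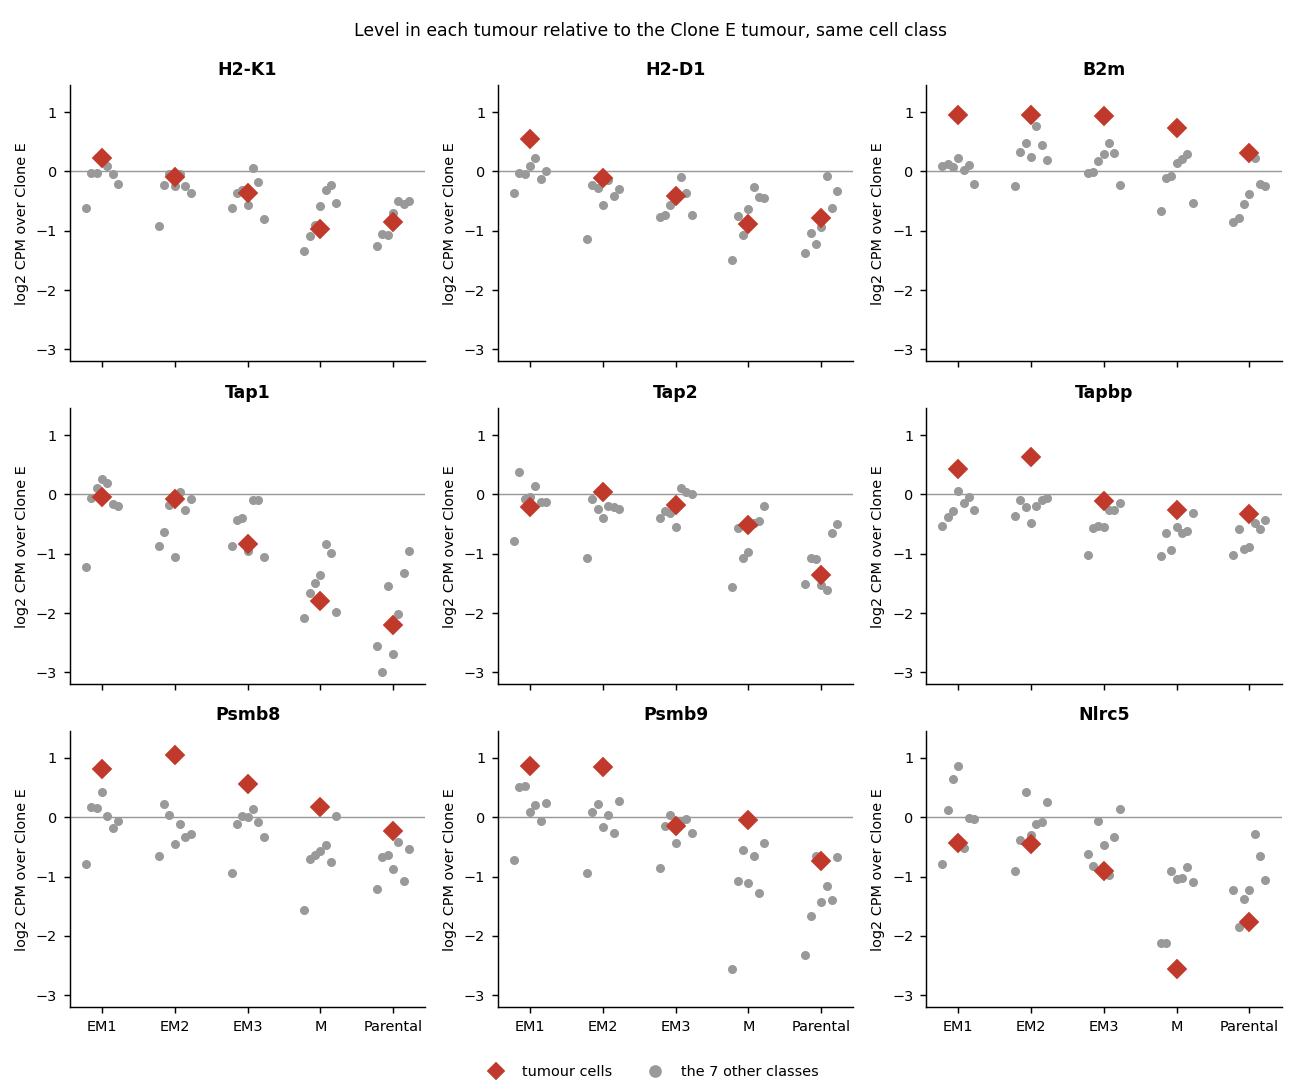
Log2 ratio (y axis) of each member's CPM in a tumour over Clone E, in tumour cells (red diamonds) and in the 7 other classes (grey points), for 1 tumour per group. For Tap1, the points of Clone M and Parental 4T1 all lie under 0, in tumour cells at -1.80 and -2.21.

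The members moved across tumours in host cells as well as in tumour cells. With 1 tumour per clone these are descriptions with no test. In Clone M, 7 of the 9 members were lower than in Clone E in all 8 classes and none was higher in all 8, while 3.41% of 5538 genes were lower in all 8 and 6.74% higher. The exceptions were B2m (lower in 4 of 8 classes) and Psmb8 (6 of 8). The counting intervals of Clones M and E overlapped in 2 classes for H2-D1, Tap2 and Psmb9, and in 1 for Tapbp and Nlrc5. For H2-K1 and Tap1 they overlapped in 0. In Parental 4T1, 8 of 9 were lower than in Clone E in all 8 classes, over 3.95% of genes lower and 12.5% higher, and B2m was lower in 6. Among these 8 the counting intervals overlapped in 2 classes for H2-D1 and in 1 for Tap2 and Nlrc5. For H2-K1, Tap1, Tapbp, Psmb8 and Psmb9 they overlapped in 0. Clone M and Parental 4T1 were each in a barcode set of their own, so tumour and barcode set cannot be told apart.

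Between tumours of the same barcode set, 3 and 2 members were lower in all 8 classes. Clone EM3 was below Clone E in all 8 classes for H2-D1, Tap1 and Tapbp (4.78% of genes were lower and 5.7% higher), and Clone EM2 below Clone EM1 for H2-K1 and H2-D1 (0.859% and 3.01%). The counting intervals of EM3 and E overlapped in 2, 3 and 1 of the 8 classes for H2-D1, Tap1 and Tapbp. Those of EM2 and EM1 overlapped in 5 for H2-K1 and 3 for H2-D1. For Tap1, EM3 over E was log2 -0.83 in tumour cells and -0.43 at the median of the 7 host classes, while EM2 over EM1 was -0.02 and -0.16. For B2m, EM3 over E was 0.93 in tumour cells and 0.18 at the host median.

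Tap1 was shifted in tumour and host cells alike. Clone M over Clone E was log2 -1.80 in tumour cells and -1.49 at the median of the host classes (-2.09 to -0.84), and Parental 4T1 over Clone E was -2.21 and -2.01. The median of all genes in these comparisons was 0.06 and 0.14. Nlrc5 was lower in Clone M in all 8 classes and most so in tumour cells, at -2.57 against a host median of -1.05 (-2.12 to -0.84). Psmb9 showed the opposite form, at -0.04 in tumour cells and -1.08 at the host median. B2m in Clone M was above Clone E in tumour cells (0.74) and near it at the host median (-0.08). H2-K1 (-0.96 and -0.59) and H2-D1 (-0.89 and -0.64) were lower in both compartments.

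The order of tumours also rests on depth per cell. Of 15 pairs of tumours, UMIs per tumour cell kept the CPM order in 9 pairs for H2-K1, 11 for Tap1 and 13 for Psmb8, and Clone E, the shallowest tumour (6402 UMIs per tumour cell at the median), had the most Nlrc5 by CPM.

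Of the variance of log2 levels over 48 class sums, the tumour of origin took 34.8% for Tap1, 31.8% for Nlrc5, 28.8% for Tap2, 27.0% for Tapbp and 23.4% for H2-D1. The median gene had 4.28%, and 99.7% of 7315 genes had a smaller tumour share than Tap1. Psmb9 (18.3%), H2-K1 (16.9%), B2m (15.8%) and Psmb8 (9.25%) were above the median gene too. Cell class took most of the variance of every member, from 56.9% for Nlrc5 to 85.3% for Psmb8, beside 82.4% for the median gene, which all members but Psmb8 lay below.

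The CD45 libraries, prepared from the same tumours, gave levels in immune classes that were mostly within 1.5-fold of the Total libraries. Over 270 pairs of values, the median log2 ratio of CD45 over Total was -0.04, and 93.0% lay within 1.5-fold. Some members shifted in 1 direction in all 6 tumours. Tapbp was lower in the B class of the CD45 libraries (log2 -0.64 to -0.19) and Psmb8 in granulocytes (-0.78 to -0.04). Tap1 was higher in T/NK cells (0.14 to 0.73). The difference between Clone M and Clone E had the same sign in both libraries in 37 of 45 cases. Both libraries of a tumour shared 12.7 to 19.1% of bead barcodes, so this does not separate a clone from its tumour or barcode set. No share of all genes is given beside the counts in the CD45 libraries. Of the 7 members lower in Clone M in all 8 classes, Tap2, Psmb9 and Nlrc5 were lower in all 5 immune classes of the CD45 libraries too. For Nlrc5 in the B class that rests on 0 UMIs in the 43 cells of Clone M, which allow up to 63.6 CPM (exact Poisson interval), beside 112 in Clone E. Tap1, H2-K1 and Tapbp were lower in 4 of the 5 and H2-D1 in 3. The exceptions were T/NK cells for H2-K1 (log2 0.10) and H2-D1 (0.23), and the B class for H2-D1 (0.24), Tapbp (0.09) and Tap1 (0.32, against -1.98 in the Total libraries). Outside those 7 members, B2m was lower in Clone M in 4 of the 5 immune classes of the CD45 libraries, beside 2 in the Total libraries. Psmb8 was lower in 5, beside 4. For B2m the sign differed in dendritic cells (log2 0.21 in Total, -0.41 in CD45) and granulocytes (0.15 and -0.37). Ifng, the interferon-γ gene, named here after its values had been seen, was at 59.2 CPM in the T/NK cells of Clone E, 41.3, 51.9 and 72.9 in Clones EM1, EM2 and EM3, 18.2 in Clone M and 5.66 in Parental 4T1, from 431 to 6 UMIs. Its part in the levels of the members was not tested.

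Likeness was the Pearson correlation of a gene's log2 level with the members' mean z-score (each member's log2 level centred and divided by its SD). Among the genes most like the members over the 48 class sums were the class I-like genes H2-Q6 (r = 0.88 among 7315 genes) and H2-Q7 (0.88). Psme2b (0.87) and Ifi35 (0.85) were there too. Over the 6 tumour cell sums alone, Gbp2b (0.98) and Gbp2 (0.98), which encode interferon-induced GTPases, were among the highest of 5824 genes, with Foxn2 (0.97) and Klhdc3 (0.96). Sums of a tumour share a library and its depth, and 6 points allow many genes to reach such values. In tumour cells Gbp2b stood at 130.3 CPM in Clone E, 205, 177 and 135 in Clones EM1, EM2 and EM3, 102 in Clone M and 88.6 in Parental 4T1.

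**Figure D4:**
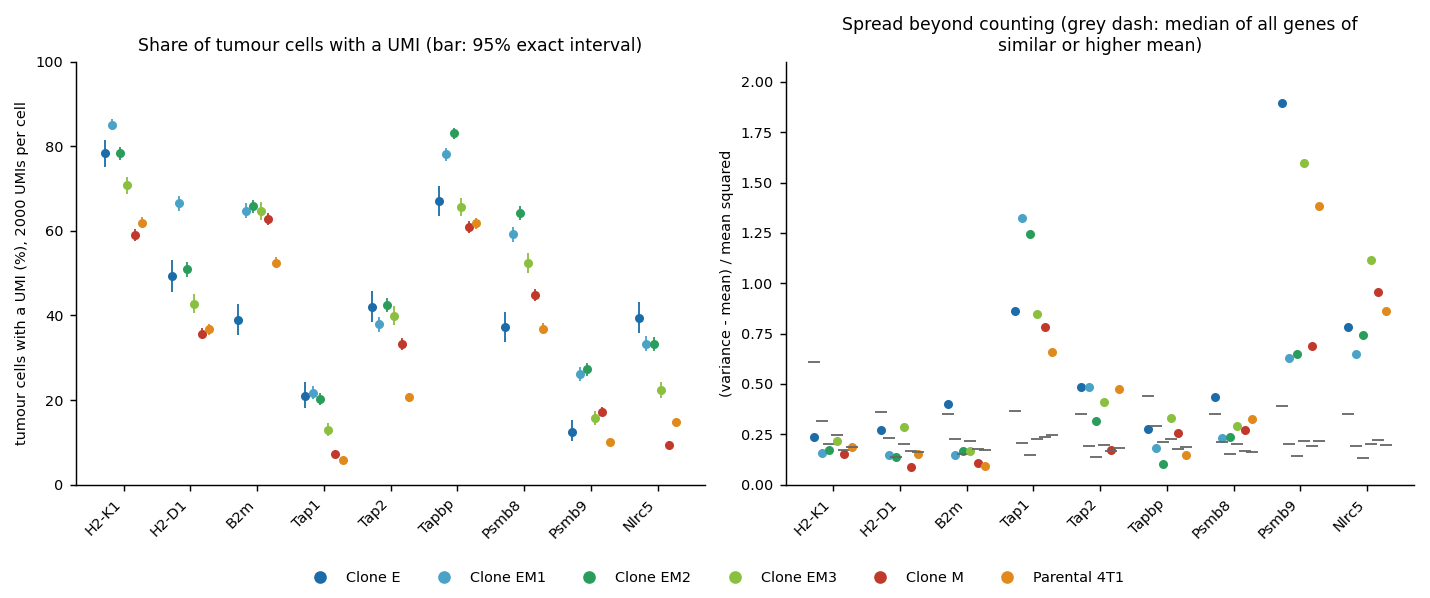
Left, the percent of tumour cells with at least 1 UMI of each member after each cell was thinned to 2000 UMIs, with exact 95% binomial intervals, 1 point per tumour; right, the spread between cells beyond counting noise, (variance - mean)/mean squared, with grey dashes at the median of genes of similar or higher mean. The right panel shows Psmb9, Tap1 and Nlrc5 at no less than 0.628, 0.657 and 0.648 in any of the 6 tumours.

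Among the tumour cells of a tumour, the members differed in how many cells held a transcript. After each cell was thinned to 2000 UMIs, leaving 701 to 5692 cells per tumour, H2-K1 was found in 59.1 to 85.1% of cells (median of the 6 tumours 74.5%) and Tapbp in 61.0 to 83.1%. B2m was found in 38.9 to 65.8%, H2-D1 in 35.7 to 66.6%, Psmb8 in 36.9 to 64.2% and Tap2 in 20.7 to 42.4%. Nlrc5 ranged from 9.45 to 39.5%, Psmb9 from 10.2 to 27.2% and Tap1 from 5.89 to 21.7%. These shares depend on depth: without thinning Tap1 was seen in 28.5% of the cells of Parental 4T1 and 65.0% of those of Clone EM2.

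Spread beyond counting noise, the variance minus the mean over the squared mean, was largest at the median of the 6 tumours for Psmb9 (0.628 to 1.90, median 1.04), Tap1 (0.657 to 1.33, median 0.856) and Nlrc5 (0.648 to 1.12, median 0.823). The order of these genes was not stable: Tap1 was above Psmb9 with called doublets kept (median 1.01 against 0.774), without cells that held Ptprc (1.07 against 0.811) and at 5000 UMIs (1.26 against 0.741). Genes with at least 50% of a member's mean had medians of 0.134 to 0.611, and Tap1, Tap2, Psmb8, Psmb9 and Nlrc5 were above theirs in 6 of 6 tumours. At 1000 UMIs that held for Psmb9 and Nlrc5 only, with Tap1 and Tap2 above in 5 tumours and Psmb8 in 4. At 2000 UMIs Psmb9 exceeded 88.1 to 96.4% of such genes and Tap1 79.2 to 95.9%. H2-K1 (0.154 to 0.235) was above its median in 0 of 6 tumours, H2-D1 (0.0852 to 0.284) in 1, and B2m (0.0940 to 0.401) and Tapbp (0.104 to 0.332) in 2, counts that ran from 0 to 4 over the other settings.

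The members varied together from cell to cell. Cells of a tumour were ranked by the thinned UMI sum of 8 members, and the ninth was compared between the highest and the lowest 20% (140 to 1138 cells each). These are ranges of a score, not cell types. Tap1 was 1.85 to 3.39 times as high in the highest 20% (median 2.51), Psmb9 1.64 to 3.17 times (2.33) and Tap2 1.65 to 2.60 times (2.07). Psmb8 was 1.59 to 2.11 times as high, H2-K1 1.53 to 2.02, H2-D1 1.35 to 2.42, Tapbp 1.44 to 2.38 (median 1.55) and B2m 1.22 to 2.32, with the lowest median of the 9 (1.36). For Nlrc5 (1.17 to 1.67, median 1.57) the counting intervals were apart in 4 of 6 tumours, beside 5 for Psmb9 and 6 for the other 7.

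**Figure D5:**
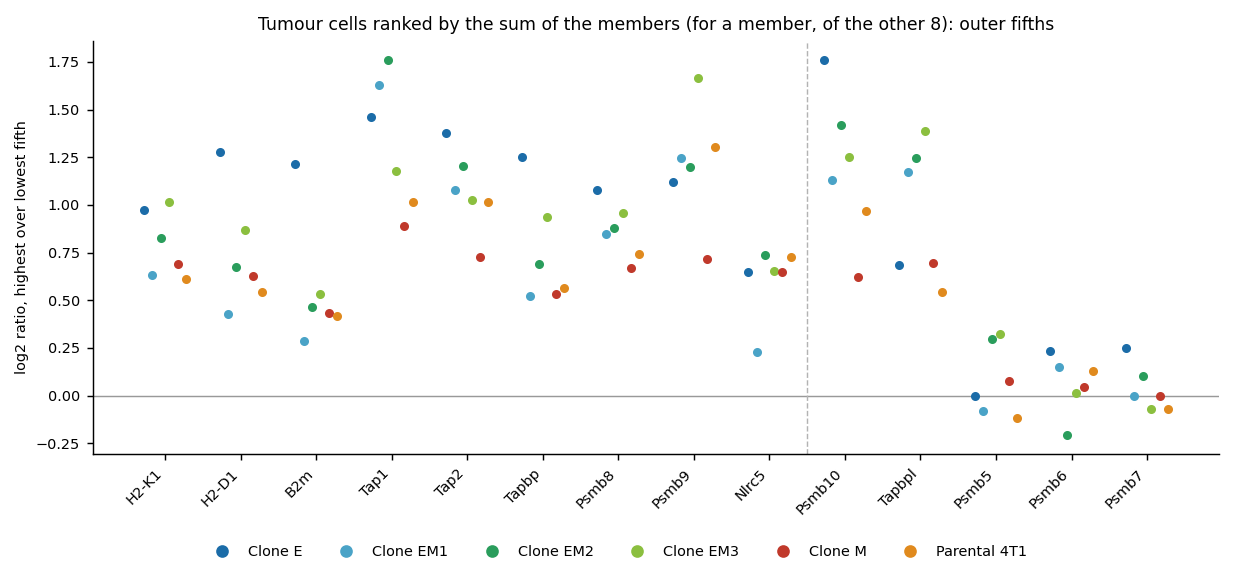
Log2 ratio (y axis) of expression in the highest over the lowest 20% of tumour cells, 1 point per tumour; members, left of the dashed line, were ranked by the sum of the other 8, and the genes to its right by the sum of all 9, with 10 CPM added to their levels. Tap1 (left) and Psmb10 (right) reach the highest values, while Psmb5, Psmb6 and Psmb7 lie on both sides of 0.

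Genes outside the list were higher in the same cells. Among 3752 other genes with at least 50 CPM in every tumour, 272 (7.25%) were higher in the highest 20% in all 6 tumours. Among the largest median log2 ratios, named after the values were seen, were those of Gbp2b (1.61), Gbp2 (1.40), Bst2 (1.29), Psmb10 (1.19), Ly6e (1.17) and Cd74 (1.10). Cd74 encodes the invariant chain of MHC class II, and Psmb10 the further catalytic subunit of the immunoproteasome. Of 36 pathway genes, 16 were higher in all 6 tumours and 0 lower in all 6. Some of the 36 lay under 50 CPM, such as Hfe at 12.7 to 23.8 in tumour cells, so the 7.25% is not a like background for them. Of the pathway genes named here after their values had been seen, Psmb10 was higher by log2 0.62 to 1.76, Psme1 by 0.44 to 1.02 and Psme2, with Psme1 a chain of the proteasome activator, by 0.38 to 0.93. The constitutive subunits Psmb5 (-0.12 to 0.32), Psmb6 (-0.21 to 0.23) and Psmb7 (-0.07 to 0.25) lay on both sides of 0.

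Leukocyte markers, 36 genes in sum, were measured in the same cells. In Clone E they were at 1386 to 1671 CPM in the lowest 20% and 1768 to 2139 in the highest, depending on the member left out. In Clone EM3 they ran the other way, 861 to 984 against 754 to 839. In Clone EM2 they were at 525 to 563 in the lowest and 290 to 550 in the highest 20%. There they were lower in the highest 20% for every member left out but Tapbp (525 against 550). The ranges overlapped in Clone EM1, Clone M and Parental 4T1. Median UMIs of the unthinned cells were 6261 to 6542.5 in the lowest and 7262 to 8509.5 in the highest 20% of Clone E. The highest 20% were also deeper, with ranges apart, in Clone EM1 (8663 to 9333 against 10097 to 10385), Clone EM2 (13762 to 14296 against 14488 to 15426) and Parental 4T1 (13086 to 13270 against 13458 to 13728). Depth ranges overlapped in Clone EM3 (15138 to 15704 and 14496 to 15306) and Clone M (12828 to 13364 and 12906 to 13284). The part of leukocyte markers and of depth in the shared variation was not tested.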

How the data were processed

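Single-cell RNA sequencing of 6 tumours gave 12 libraries, grouped by the labels' titles. The authors deposited whole UMI counts for each gene in each cell, and per the file headers a second table gives the counts per cell, the mitochondrial percent, the same as a fraction, and the authors' Annotation. The submitters' processing notes name Cell Ranger and mm10, and the authors' cell filters are not given in the sources used here. The labels name a fixed RNA kit as well as 3′ reagents and do not by themselves settle the chemistry. The Total and CD45 libraries of a tumour shared bead barcodes but 0 full barcodes, so the rest of the barcode told them apart. Where a kit counts by probes, levels compared between genes also depend on the probes, which was not tested. Sequences are from RefSeq (GRCm38.p6).

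Doublets were called per library by the Scrublet method (2 simulated pairs per cell, expected 6%, 2000 variable genes, 30 components) and removed: 1517 of 60657 cells (2.50%) in the Total libraries. Counts were summed per class and Total library with at least 20 cells. The main test was edgeR 4.0.16 (R 4.3.3) with TMM and filterByExpr, on tumour cells and 1 other class at a time. It was tested on simulated data. The block is the tumour: both classes of a pair come from the same animal and library, so the pairing is given by the samples, and 5 residual degrees of freedom remain. The 6 tumours are of 6 different lines, so p-values rest on how the difference between the classes of a pair varied among them. The spread of levels among tumours is taken up by the block. edgeR draws part of its estimate of variation from all genes tested. CPM values carry exact Poisson intervals, and shares exact Clopper-Pearson intervals, at 95%, which cover counting error only. For spread, tumour cells were thinned to 2000 UMIs and shallower cells left out. Alternatives were DESeq2 1.42.0 size factors, total UMIs, UMIs per cell, no low-count filter, no block, all classes in 1 fit, 50 cells, tumour cell CPM as the mean over cells, other thinning depths, doublets kept, tumour cells without Ptprc and each tumour left out. Python 3.11.15 was used with numpy 2.4.6, scipy 1.17.1 and pandas 2.3.3. The 12 libraries hold no per-sample columns of other series. No test was made between clones, with 1 tumour each. By rule, the genes named are the 9 members, at most 6 of a list of 38 pathway genes by number of contrasts called, and the 5 genes most like the members, over all class sums and over tumour cell sums, of which 1 each is not reported here. Outside the rule and chosen after their values were seen are H2-M3, Psmb10, Psme1, Psme2, Psmb5, Psmb6, Psmb7, Bst2, Ly6e, Cd74 and Ifng. The members and lists were chosen with earlier results of these data known.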

Additional observations from a re-analysis of the deposited data

Results flagged for a closer look

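In 3 of 63 sets of 6 tumours (9 members against 7 classes), 1 tumour lay far from the rest in the log2 CPM ratio of tumour cells over a class; its gap to the nearest tumour, over the whole range, passed Dixon's 95% limit, which chance passes in about 1 set in 20. For B2m over granulocytes, Clone E was at -0.0856 and the other tumours at 0.501 to 0.63. For Tap1 over the B class, Parental 4T1 was at -2.2 and the others at -0.954 to -0.737. For Tapbp over fibroblasts, Clone E was at 0.538 and the others at 1.24 to 1.53. No cause was tested.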

How the results depend on the processing

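Keeping called doublets left all 63 member fold changes with their direction and side of the threshold, and dropping tumour cells with Ptprc or requiring 50 cells left 62. Without 1 tumour at a time, 359 of 378 did, with 16 losing and 3 gaining a call. The replicate block, the tumour, was used throughout; with no replicate block 50 of 63 kept their call and 13 lost it, and the counts of members became 5 higher for fibroblasts, 6 lower for dendritic cells, 2 lower for macrophages, 0 lower and 2 higher for endothelial cells, 0 higher for macrophages, 1 lower for granulocytes and 0 higher for the B class. The cause of these changes was not tested.

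Counted as UMIs per cell, 34 log2 fold changes turned positive. They were 0.78 (H2-K1) and 0.70 (B2m) over endothelial cells. Over macrophages they were 0.96 (H2-K1), 0.83 (H2-D1), 0.36 (B2m), 0.34 (Tap1), 1.12 (Psmb8) and 0.16 (Psmb9). Over granulocytes they were 3.51 (H2-D1), 3.63 (B2m), 2.73 (Tap1), 3.88 (Tap2), 3.70 (Tapbp), 3.50 (Psmb9) and 3.80 (Nlrc5). Over dendritic cells they were 1.14 (H2-K1), 0.89 (H2-D1), 1.02 (B2m), 0.65 (Tap2), 1.25 (Tapbp) and 0.65 (Psmb8). Over T/NK cells they were 1.62 (H2-K1), 1.98 (H2-D1), 1.85 (B2m), 0.57 (Tap1), 2.43 (Tap2), 2.48 (Psmb8), 1.25 (Psmb9) and 2.27 (Nlrc5). Over the B class they were 2.20 (H2-K1), 2.50 (H2-D1), 2.22 (B2m), 1.44 (Tap1) and 1.72 (Psmb9). The members called were then 0 lower and 8 higher for endothelial cells, 0 and 6 for macrophages, 0 and 9 for granulocytes, 2 and 7 for dendritic cells, 0 and 8 for T/NK cells and 0 and 9 for the B class. Of all genes, 11.3% were lower and 68.9% higher for endothelial cells, 14.3% and 65.8% for macrophages, and 4.19% and 92.9% for granulocytes. The shares were 8.61% and 81.7% for dendritic cells, 6.28% and 88.3% for T/NK cells, and 5.16% and 89.3% for the B class. The member counts are to be read against these shares.

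On total UMIs, with no TMM, 7 turned positive: Psmb8 over macrophages (0.36), and over granulocytes H2-D1 (0.37), B2m (0.47), Tap2 (0.74), Tapbp (0.55), Psmb9 (0.35) and Nlrc5 (0.67). The counts were 4 higher for macrophages (48.6% of all genes), 1 lower and 7 higher for granulocytes (18.0% and 66.2%), and 5 lower and 1 higher for dendritic cells (19.5% and 50.9%). With no filter on low counts, 3 over granulocytes turned: H2-D1 (0.12), Tap2 (0.49) and Psmb9 (0.096), with 1 lower and 3 higher there, 3 lower for T/NK cells and 6 lower for dendritic cells. DESeq2 called 5 lower for granulocytes. With all classes in 1 fit, 1 was lower and 2 higher for granulocytes and 3 higher for the B class.

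Leaving out 1 tumour at a time gave 1 to 2 members higher than in macrophages (1 without Clone EM2, EM3 or M), 1 to 4 lower than in granulocytes (1 without Clone E), 6 to 8 lower than in dendritic cells (6 without Clone EM3 or M), 0 to 1 higher than in them (1 without Clone M) and 0 to 1 higher than in the B class (0 without Clone EM1 or EM2). Depth limits the shares of cells with a UMI: thinning to 1000 UMIs moved 45 of 54 and to 5000 UMIs 52 of 54, while the spread beyond counting noise moved in 16 and 14 of 54, in 15 with called doublets kept and in 15 without cells that held Ptprc. Read from the CD45 library of the same tumour, 57 of 270 immune class levels moved. Taken as the mean over cells of each cell's CPM, 30 of 54 tumour cell levels moved past their counting interval, to 0.912 to 1.13 times the level of summed UMIs. The lowest tumour was the same for 9 of 9 members and the highest for 8, B2m being highest in Clone EM2 in place of EM1; the whole order of tumours was the same for 6, with H2-D1, B2m and Psmb9 the exceptions.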
